A study of Mus musculus with 2 samples.

Results

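Promoter-promoter contacts over long distances were examined in mouse embryonic stem cells (ESCs) by ChIA-PET of RNA Pol II, a method that sequences the joined ends of neighboring chromatin fragments. A contact was included when both of its anchors lay on the same chromosome, each within 2500 bp of a transcription start site (TSS) of a protein-coding gene, with the anchor midpoints at least 1 Mb apart, whatever its number of paired-end tags (PETs). This gave 4558 of 12330 intrachromosomal pairs of anchors in control cells (37.0%) and 1825 of 5037 in Ronin knockout cells (36.2%). They held 5098 and 2271 PETs, which is 20.7% and 18.7% of the intrachromosomal PETs.

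Both groups were ESCs from blastocysts of a cross between CreERT2 animals and Roninflox/flox animals, so by the labels all cells carried the inducible Cre recombinase and the floxed alleles. The study's methods add a further cross, with animals that had a floxed and a null allele of Ronin. They were grown with serum and LIF on gelatine and received ethanol (control) or tamoxifen (Ronin knockout) for 4 days. The authors merged 2 experiments per condition before deposit, which leaves 1 library per group and no spread between replicates. All tests below therefore compare 2 libraries and not the conditions, and all 95% intervals cover counting error only.

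In ChIA-PET, chromatin bound by a chosen protein is immunoprecipitated and DNA ends held close together are ligated, so that a PET whose ends fall in different peaks records that these peaks were near each other in a cell. RNA Pol II gathers at the promoters of active genes, and a pair of promoters can thus appear as a contact. Ronin, the product of Thap11, is a zinc finger protein that binds a motif close to the TSSs of many housekeeping genes and works with the cofactor Hcfc1. Ligation between molecules that were not in contact also yields PETs, and such PETs can join any chromosomes, which makes the rate between chromosomes a useful reference.

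At the promoter of Thap11 itself, the intrachromosomal PETs numbered 11 in control and 5 in the knockout, of which 4 and 1 were promoter contacts of at least 1 Mb. Pol II contacts do not show whether the gene was deleted, and the labels were not checked in this way. The libraries held different numbers of PETs. Interchromosomal pairs numbered 115937 with 131434 PETs in control and 39291 with 53136 PETs in the knockout, and the knockout PETs were thus 40.4% of control (40.0 to 40.8).

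The results below refer to 3 sets of sequences. The first belongs to the pair with the most PETs in the knockout library, the promoters of Rnaset2b and Rnaset2a, a pair of genes for ribonuclease T2 on chromosome 17. Their anchors at chr17:7183375-7184473 and chr17:8340071-8340997 (mm9) share an identical stretch of 202 bp, in opposite orientation. It lies in an intron of each gene, 420 bp from the nearest TSS. The 200 bases at chr17:7183629-7183828 are shown on the plus strand, all of them in lower case since every base is shared.
Rnaset2b and Rnaset2a, identical stretch: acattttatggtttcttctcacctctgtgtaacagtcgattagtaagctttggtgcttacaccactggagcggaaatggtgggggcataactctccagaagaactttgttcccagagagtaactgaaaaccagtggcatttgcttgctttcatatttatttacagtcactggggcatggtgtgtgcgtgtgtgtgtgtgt

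The second set comes from the replication-dependent histone genes of chromosome 13, which code for the proteins that package newly made DNA. The anchor from Hist1h2bl to Hist1h2bn and the anchor from Hist1h3e to Hist1h4d share 338 identical bp, all of it coding sequence of Hist1h2ai and of Hist1h2ad. The 200 bases at chr13:21808342-21808541 (mm9, plus strand) are given.
Hist1h2ai and Hist1h2ad, identical stretch: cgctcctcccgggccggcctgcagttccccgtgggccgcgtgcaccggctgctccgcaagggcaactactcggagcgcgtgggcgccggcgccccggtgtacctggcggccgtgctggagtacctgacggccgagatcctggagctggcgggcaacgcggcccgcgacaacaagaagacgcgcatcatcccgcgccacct

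The third set shows the Ronin-binding motif, searched as exact copies on both strands, at the promoters of contacts that had it at both anchors. Capitals mark the 15 bases of the motif, and each stretch (mm9) is written on the strand of the motif. All of the copies shown lay upstream of the nearest TSS, by 24 bp at Zfp444 to 741 bp at Tbx6.
Jarid2, chr13:44826080-44826124, plus strand: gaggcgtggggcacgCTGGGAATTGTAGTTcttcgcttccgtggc
Asb13, chr13:3633215-3633259, minus strand: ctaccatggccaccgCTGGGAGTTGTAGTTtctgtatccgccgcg
Dimt1, chr13:107737098-107737142, minus strand: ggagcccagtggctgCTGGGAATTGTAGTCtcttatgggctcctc
Cep97, chr16:55934972-55935016, minus strand: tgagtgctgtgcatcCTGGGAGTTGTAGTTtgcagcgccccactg
Atp5j, chr16:84835553-84835597, plus strand: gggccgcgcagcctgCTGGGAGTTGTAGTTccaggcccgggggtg
Ipo7, chr7:117161702-117161746, minus strand: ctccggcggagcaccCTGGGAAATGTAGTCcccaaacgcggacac
Tbx6, chr7:133924234-133924278, minus strand: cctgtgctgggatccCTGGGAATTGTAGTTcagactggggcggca
4922501C03Rik, chr9:87150413-87150457, plus strand: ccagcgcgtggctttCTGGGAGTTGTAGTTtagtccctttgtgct
Snx14, chr9:88333990-88334034, plus strand: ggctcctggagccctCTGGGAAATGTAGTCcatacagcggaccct
Zfp444, chr7:6123782-6123826, plus strand: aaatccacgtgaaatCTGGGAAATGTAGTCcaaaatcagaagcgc
6330408A02Rik, chr7:13864090-13864134, minus strand: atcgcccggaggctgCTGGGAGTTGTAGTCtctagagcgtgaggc

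Most long-range promoter contacts were seen once. Of the 4558 control pairs, 97.8% (exact binomial interval 97.4 to 98.2) had 1 PET, and of the 1825 knockout pairs 96.7% (95.8 to 97.5). The share was 88.4% and 89.7% among promoter pairs under 1 Mb, and 98.4% and 98.5% among promoter pairs on different chromosomes. Pairs with at least 2 PETs numbered 99 in control and 60 in the knockout, those with at least 3 PETs 34 and 27, and those with at least 5 PETs 15 and 13. These few pairs held 639 and 506 PETs, at least 2 each. The highest single value was 103 PETs in control and 177 in the knockout.

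The deposited adjusted p-value was under 0.05 for 4011 of the control pairs (88.0%) and 1743 of the knockout pairs (95.5%). Among all intrachromosomal pairs the share was 94.1% and 97.9%, so the share among long-range promoter contacts was below that background in both libraries. The authors' adjusted p-value thus accepted most contacts of a single PET. Their methods also set a minimum of 3 independent PETs for high-confidence interactions, which 34 control and 27 knockout pairs reached here.

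The contacts spanned whole chromosomes. The median distance was 33.2 Mb in control (quartiles 13.3 and 64.3 Mb) and 30.5 Mb in the knockout (12.1 and 62.3 Mb), and the longest spanned 162 and 177 Mb. Pairs with at least 2 PETs lay closer, at a median of 25.04 Mb in control and 6.57 Mb in the knockout. The anchors were wide, with a median of 13.2 and 16.0 kb against 5.35 and 7.37 kb for all promoter anchors. They numbered 4141 of 12248 promoter anchors in control (33.8%) and 2339 of 9608 in the knockout (24.3%).

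Protein-coding genes at these anchors numbered 5642 in control and 3657 in the knockout, of 22238 annotated. Both libraries held 2681 of them, which is 47.5% of the control genes and 73.3% of the knockout genes. Of the 6618 genes seen in either library, 4645 (70.2%) had fewer PETs in the knockout, 1266 (19.1%) had more and 707 had the same number. These counts were not scaled for the difference in library totals.

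The knockout library held fewer long-range promoter contacts than the control library. PETs were at 44.5% of control (42.4 to 46.8) and pairs at 40.0% (37.9 to 42.3). Among pairs with at least 2 PETs the values were 79.2% (70.3 to 89.1) and 60.6% (43.2 to 84.4). The single pair of Rnaset2b and Rnaset2a held 177 of the 506 knockout PETs behind the 79.2%, and 0 of the 639 in control. Promoter pairs under 1 Mb had 3657 and 2026 PETs, or 55.4% (52.4 to 58.5). Pairs of at least 1 Mb in which an anchor was no promoter had 3927 and 1446 PETs, or 36.8% (34.6 to 39.1). Promoter pairs between chromosomes had 75216 and 30610 PETs, or 40.7% (40.2 to 41.2).

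The ratio of long-range promoter contacts was 0.804 times that of promoter pairs under 1 Mb (0.747 to 0.866, two-sided Fisher's exact test, Benjamini-Hochberg adjusted over 3 comparisons, p = 1.92e-08). It was 1.21 times that of long-range pairs with a non-promoter anchor (1.12 to 1.31, exact test, adjusted p = 2.43e-06). Counted in pairs, these values were 0.785 and 1.22. Over pairs with any number of PETs, promoter contacts at a distance were thus reduced more than nearby ones and less than distant contacts without a promoter at both ends. With at least 2 PETs the direction against nearby pairs turned, and the ratio was 1.34 (1.17 to 1.55, exact test, adjusted p = 8.99e-05). That set includes the pair of Rnaset2b and Rnaset2a, with 0 PETs in control and 177 of the 506 in the knockout. Taking this pair out would bring the PET ratio below that of the nearby pairs, so the turn by PETs rests on this pair. No interval or test without the pair was computed. Counted in pairs, the set held 99 and 60 long-range and 235 and 106 nearby promoter pairs.

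Against promoter pairs between chromosomes the ratio was 1.09 (1.04 to 1.15, exact test, adjusted p = 0.000588) by PETs and 1.097 by pairs (exact test, adjusted p = 0.00125). The PET-based difference depended on which pairs were included. Without the single pair of Rnaset2b and Rnaset2a it was 1.01 (exact test, adjusted p = 0.727), and without all pairs with 100 or more identical bp at both anchors it was 0.977 (0.923 to 1.03, exact test, adjusted p = 0.419). Counted in pairs without such stretches it was 1.086 (1.03 to 1.15, exact test, adjusted p = 0.00478). By PETs without the anchors of Gm10800, Gm10801 and Gm10722/Gm11168 it was 1.21 (1.14 to 1.27, exact test, adjusted p = 8.88e-12). In the plot of the 4 classes, the long-range promoter contacts sit between the nearby and the other distant pairs by both units.

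**Figure D1:**
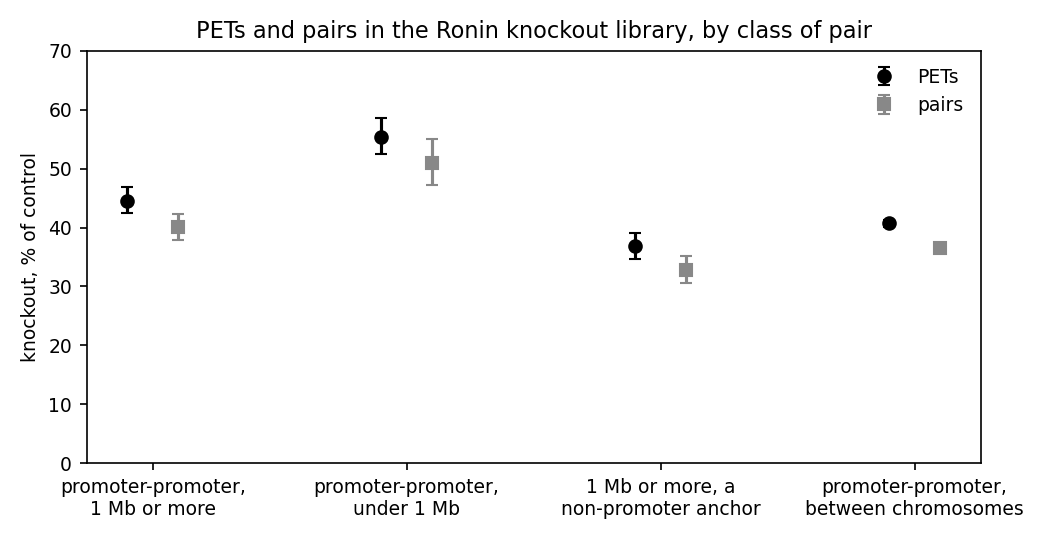
Knockout values as a percent of control for 4 classes of pairs (x axis), with circles for PETs, squares for pairs and bars for exact 95% intervals of counting error; each class compares 1 control with 1 knockout library. Promoter-promoter pairs of 1 Mb or more stand at 44.5% by PETs and 40.0% by pairs, below promoter-promoter pairs under 1 Mb (55.4% and 51.0%).

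By distance, the contacts nearest to 1 Mb stood apart. From 1 to 2 Mb there were 428 PETs in control and 407 in the knockout, or 95.1% (82.8 to 109), while the pairs numbered 197 and 100, or 50.8% (39.5 to 64.9). The pair of Rnaset2b and Rnaset2a, with 0 and 177 PETs, belongs to this bin, and without it the PETs were at 53.7% (45.6 to 63.2). From 2 to 5 Mb the PETs numbered 487 and 237, or 48.7% of control, and from 5 to 10 Mb 395 and 163, or 41.3%. The share was close to constant beyond that. It was 39.6% from 10 to 20 Mb (704 and 279 PETs), 38.3% from 20 to 50 Mb (1471 and 564) and 38.5% over 50 Mb (1613 and 621), with intervals that overlap.

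The number of possible pairs grows with distance, so pairs were also counted per 1000000 possible pairs of the promoter anchors listed in the same library. This frequency was 49349 in control and 43675 in the knockout for promoters within 0.1 Mb. At 1 to 2 Mb it was 2110 and 1750, and over 50 Mb 967 and 621. Promoters on different chromosomes were joined at 953 and 565 pairs per 1000000 possible.

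Relative to this rate between chromosomes, control contacts at 1 to 2 Mb were 2.21-fold more frequent (exact Poisson interval 1.92 to 2.55) and knockout contacts 3.10-fold (2.52 to 3.77). At 2 to 5 Mb the values were 1.42-fold and 1.82-fold, at 5 to 10 Mb 1.25-fold and 1.41-fold, at 10 to 20 Mb 1.21-fold and 1.32-fold, and at 20 to 50 Mb 1.15-fold and 1.22-fold. Contacts over 50 Mb occurred at 1.02 times the rate between chromosomes in control (0.965 to 1.07), a difference not detectable at this depth, and at 1.0998 times in the knockout (1.01 to 1.19). Without anchors that hold over 1000 interchromosomal PETs, a set chosen after the values were seen, the last 2 values were 1.001 (0.951 to 1.05) and 1.08 (0.992 to 1.17). In the plot of pairs by distance, both curves come down to the dashed lines that mark the rates between chromosomes.

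**Figure D2:**
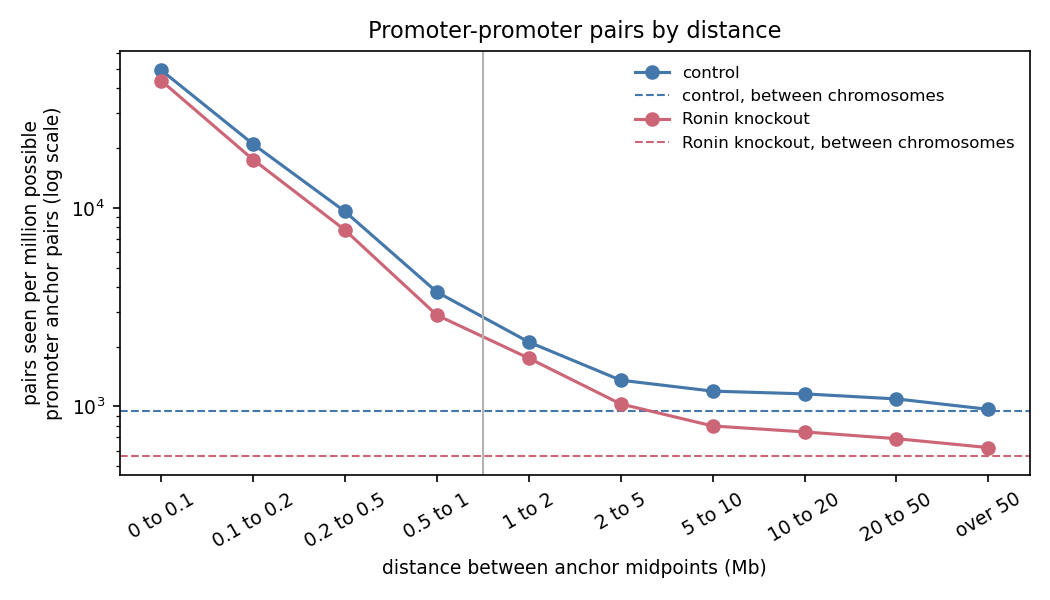
Promoter-promoter pairs seen per 1000000 possible pairs of promoter anchors (y axis, log scale) by distance between anchor midpoints in Mb (x axis), in the control and the Ronin knockout library; dashed lines give the rate between chromosomes and the vertical line marks 1 Mb. From 1 to 2 Mb the values are 2110 and 1750, and over 50 Mb they are 967 and 621, next to rates between chromosomes of 953 and 565.

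Few long-range contacts were found in both libraries. A pair was taken as found again when both of its anchors overlapped those of a pair in the other library by at least 1 bp. This held for 87 of 4558 control pairs (1.91%, 1.53 to 2.35) and for 85 of 1825 knockout pairs (4.66%, 3.74 to 5.73). Promoter pairs under 1 Mb were found again in 221 of 2026 cases (10.9%) and 220 of 1033 cases (21.3%). The odds of being found again were 0.159 times those of the nearby pairs in control (two-sided Fisher's exact test, p = 6.11e-52) and 0.181 times in the knockout (exact test, p = 1.21e-41). Both anchors overlapped a listed peak of the other library for 92.2% of the control pairs and 97.9% of the knockout pairs, so that a peak to overlap was present for most pairs that were not found again.

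The share depended on the number of PETs. Pairs with 1 PET were found again in 1.17% of control and 3.12% of knockout cases. Pairs with at least 2 PETs were found again in 35.4% and 50% of cases, against 36.6% and 57.5% of the nearby promoter pairs, and the difference from nearby pairs did not pass the test (Fisher's exact test, p = 0.901 and 0.417).

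With overlapping anchors of the libraries merged, the contacts formed 6292 different pairs, of which 4464 were seen in control only, 1736 in knockout only and 92 in both. Of these 92, 31 joined anchors with an identical stretch of at least 100 bp, at a median of 1.97 Mb and with 437 and 246 PETs. A further 15 involved the anchors of Gm10800, Gm10801 or Gm10722/Gm11168, which also held over 1000 interchromosomal PETs each. The remaining 46 held 74 and 62 PETs at a median of 37.7 Mb, and 38 of them had 1 PET in each library. Chromosome 11 held 15 of the 46, beside 772 of all 4558 control pairs and 308 of all 1825 knockout pairs. Among the 15 were Npm1 (nucleophosmin of the nucleolus) with Csnk1d, 87.8 Mb apart, and Hnrnpab with Ddx42, 54.7 Mb apart. Each was seen once per library. Both are examples chosen after their values were seen.

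Most PETs of contacts seen repeatedly were in pairs with a shared stretch, although most such pairs had none. Of 144 merged pairs with at least 2 PETs in a library, 35 had anchors with 100 or more identical bp and 109 did not. The 35 pairs held 444 PETs in control and 424 in the knockout at a median distance of 1.86 Mb, and 28 of them were seen in both libraries. The 109 pairs held 221 and 97 PETs at a median of 34.6 Mb, 14 of them were seen in both libraries, and 82 had 2 PETs in 1 library and 0 in the other. Over all long-range promoter contacts, pairs with such a stretch were 1.69% of the control pairs and 3.12% of the knockout pairs, and held 9.53% and 19.8% of the PETs. By the study's methods, reads with several equally good alignments were discarded, and the part that shared sequence had in the PET counts was not tested.

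The pair with the most PETs in control cells was Gm13212 with Gm13157 on chromosome 4, 2.01 Mb apart, with 103 PETs in control and 49 in the knockout and 158 identical bp. On chromosome 2, Gm14393 with Gm14401 had 86 and 39 PETs over a stretch of 320 bp, 1.96 Mb apart, and a neighboring pair of anchors of the same genes had 64 and 46. Gm14393 with Gm14412, 2.22 Mb apart, had 46 and 19 PETs, and Gm14443 with Gm14401, 1.86 Mb apart, had 15 and 12. On chromosome 12, Gm9590 with 1700030C10Rik had 18 and 15 PETs at 2.42 Mb. All of these pairs were seen in both libraries, and the knockout had fewer PETs in each. These raw counts were not scaled for library totals, and all long-range promoter PETs were at 44.5% of control.

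The histone genes of chromosome 13 formed the next group. The anchor from Hist1h2bl to Hist1h2bn had 19 and 8 PETs with the anchor from Hist1h3e to Hist1h4d, 1.84 Mb away, whose shared coding sequence is shown above. It had 16 and 10 PETs with the anchor from Hist1h1c to Hist1h1a, 2.02 Mb away, over 295 identical bp, of which 294 bp code for Hist1h2ai and Hist1h2ab.

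The pair of Rnaset2b and Rnaset2a was seen in the knockout library only. It had 0 PETs in control and 177 in the knockout, or 7.79% of all knockout PETs in long-range promoter contacts. The control library listed 1 peak at the Rnaset2b anchor, with 0 intrachromosomal and 2 interchromosomal PETs, and no peak at the Rnaset2a anchor. The knockout library listed a peak at each, with 0 and 1 interchromosomal PETs besides the 177 of the pair. The value of 0 in control therefore stood where 1 of the anchors was not a listed peak.

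Of the pairs without a shared stretch of 100 bp, Zc3h7a with Kpna1 (an importin that carries proteins into the nucleus) on chromosome 16 had the most PETs, 23 in control and 0 in the knockout, at 24.9 Mb. The Zc3h7a anchor at chr16:11143789-11144679 is 891 bp long, lies inside Zc3h7a 1789 bp from its TSS and overlaps the microRNA gene mir-689-2. The knockout library listed no peak there, while the control peak also had 38 interchromosomal PETs. Rnft1/Rps6kb1 (S6 kinase) with Rdm1 on chromosome 11 had 15 and 6 PETs at 15.2 Mb, with an identical stretch of 79 bp. Ascc2 with Suz12, a subunit of Polycomb repressive complex, had 10 and 0 PETs at 75.3 Mb with 97 identical bp, and both libraries listed a peak at each anchor. Myadm with Abcc6/Nomo1 on chromosome 7 had 6 and 3 PETs at 50.002 Mb. Gm9222 with Asap2 on chromosome 12 had 0 and 6 PETs at 3.23 Mb. Gm13247 with Gm13157 on chromosome 4 had 2 and 7 PETs at 1.45 Mb, the 2 control PETs lying in a pair that did not meet the promoter rule. The pairs of Ascc2, Myadm and Gm9222 were named after their values were seen. Only 22 merged pairs without a shared stretch reached 3 PETs in either library. The plot of the top pairs gives the values of these and the pairs above.

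All 20 chromosomes examined held long-range promoter contacts, and chromosome 11 held the most pairs, 772 in control and 308 in the knockout. The PET ratio of 2 chromosomes differed from that of the rest. Chromosome 17 had 151 and 241 PETs, or 160% of control (130 to 197, Fisher's exact test against the other chromosomes, adjusted p = 1.38e-36). Its pairs numbered 150 and 62 (exact test, adjusted p = 1), and without the Rnaset2b and Rnaset2a pair its PETs were 151 and 64 (exact test, adjusted p = 0.820). The PET difference of chromosome 17 was thus that of a single pair.

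Chromosome 15 had 134 and 30 PETs, or 22.4% of control (14.5 to 33.5), which is 0.496 times the ratio of the other chromosomes (Fisher's exact test, adjusted p = 0.00305). By pairs, 133 and 30, the difference no longer passed (exact test, adjusted p = 0.0559), nor did it by PETs without pairs that share a stretch (exact test, adjusted p = 0.0723). On the same chromosome the promoter pairs under 1 Mb had 75 and 42 PETs, or 56.0%, and its interchromosomal promoter pairs were at 34.6%. Chromosome X had the lowest ratio after chromosome 15, with 57 and 14 PETs or 24.6% (12.6 to 44.6), a difference that did not pass (exact test, adjusted p = 0.253). In the plot by chromosome, the PET intervals of all chromosomes but 15 and 17 cross the line for all contacts.

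**Figure D3:**
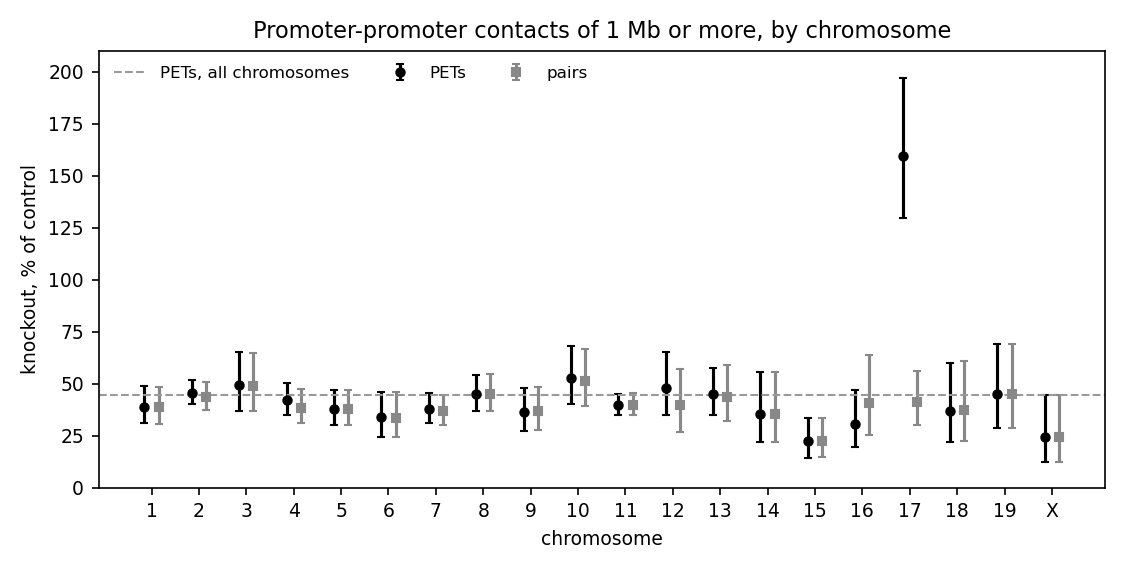
Long-range promoter-promoter contacts of the knockout as a percent of control (y axis) for each chromosome (x axis), with circles for PETs, squares for pairs and bars for exact 95% intervals of counting error; the dashed line is the PET value over all chromosomes (44.5%). Chromosome 17 stands at 160% by PETs and 41.3% by pairs, and chromosome 15 at 22.4% and 22.6%.

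Some promoters had many distant partners. Over 4055 merged anchors in control and 2309 in the knockout, the mean number of partners was 2.25 and 1.58. Anchors with a single partner made up 55.6% and 69.6%, and those with at least 5 partners 10.1% and 2.99%. Partner numbers depend on the pairs listed, 4558 and 1825, and were not scaled for this difference between the libraries. Anchors with more partners were wider, at a median of 39.8 kb for at least 5 partners against 8.73 kb for 1 partner in control, and 46.3 against 13.4 kb in the knockout. Across anchors, the number of partners was correlated with anchor width (Spearman's rho 0.576 and 0.425) and with the interchromosomal PETs of the anchor (0.636 and 0.484). These are descriptions over anchors of 1 library, which share its depth.

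The anchor of Gm10800 on chromosome 2 (chr2:98506240-98507615) had the most partners, 98 in control and 50 in the knockout. It is 1.38 kb wide, and 660 of its bases are annotated as coding. It also had 9461 and 7418 interchromosomal PETs. Pairs with this anchor or those of Gm10801 and Gm10722/Gm11168 numbered 127 and 61 with 152 and 68 PETs, or 44.7% of control, and without them the ratio over the remaining contacts was 44.5%.

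The other anchors with the most control partners were 22.9 to 77.2 kb wide, and most held several genes. The anchor from Fxr2 to Tnfsf13, which holds Eif4a1 (an RNA helicase of translation initiation) and Senp3, had 22 partners in control and 3 in the knockout. The histone anchor from Hist1h1c to Hist1h1a had 22 and 12, and that of Hnrnpab and Nhp2 (a protein of H/ACA snoRNPs) 21 and 8. Mt1 and Mt2, which code for metallothioneins, had 21 and 6, and Pfas, an enzyme of purine synthesis, with Aurkb, a mitotic kinase, 19 and 4. Sap30/Hmgb2 had 19 and 6 partners and Suz12 19 and 2. Npm1 had 18 and 5, and H3f3b, which codes for histone H3.3, 18 and 10. These anchors were chosen for their control values, so lower values in the knockout are in part what the choice gives. Their interchromosomal PETs were also lower in the knockout at every anchor named. They numbered 171 and 54 at the anchor from Fxr2 to Tnfsf13 and 149 and 38 at Suz12.

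Ranked by the knockout library, Gm10800 was again first, and Mreg on chromosome 1 followed with 4 partners in control and 14 in the knockout. Its knockout partners included Zfp281, Usf1 and Ndufs1/Eef1b2. Rad51c/Tex14, the former a gene of homologous recombination, had 17 and 12 partners. The merged Mreg anchor was 72.2 kb wide and had 410 and 152 interchromosomal PETs. These anchors were chosen for their knockout values, so high values in the knockout are in part what the choice gives.

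To ask which anchors changed, the intrachromosomal PETs of each merged anchor were compared by a two-sided exact binomial test with Benjamini-Hochberg adjustment over all 12390 merged anchors. Of 4875 anchors with long-range promoter contacts, 601 with at least 10 PETs, 4 were lower in the knockout library (0.0821%) and 9 higher (0.185%). Over all merged anchors the shares were 0.258 percent lower and 0.323 percent higher, and both shares among anchors of long-range promoter contacts were below that background. At an unadjusted p under 0.05 there were 34 lower (0.697%) and 74 higher (1.52%), against 0.726% and 1.33% of all merged anchors.

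The test counts all intrachromosomal PETs of an anchor, and for most called anchors few of these were long-range promoter contacts. Rnaset2b and Rnaset2a were higher (0 and 177 PETs each, exact test, adjusted p = 3.45e-82), as was Ddx49/Cope on chromosome 8 with 22 and 63 PETs (exact test, adjusted p = 8.23e-12), of which 1 and 0 were long-range promoter PETs. Gm10722/Gm11168 had 221 and 231 PETs, of which 12 and 4 were of this kind. Hvcn1, a proton channel gene, had 36 and 0 PETs and Myl12b, a myosin light chain gene, 35 and 0 (exact test, adjusted p = 0.000264 and 0.000445), each with 1 and 0 long-range promoter PETs. In contrast, 29 of 42 control PETs of Suz12 joined it to a distant promoter, against 2 of 2 in the knockout (exact test on all PETs, adjusted p = 0.00195). The 23 control PETs of Zc3h7a all belonged to its pair with Kpna1 (exact test, adjusted p = 0.0298). The knockout library listed no peak at Zc3h7a, and the control library none at Rnaset2a. PETs were counted only between listed peaks, so at these anchors the test cannot tell a missing peak from fewer contacts. The 177 PETs of Rnaset2b and Rnaset2a are those of their pair and count at both anchors, both among the 9 called higher.

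Exact copies of the Ronin-binding motif were uncommon at these anchors. An exact copy was found in 113 of 4141 anchors in control (2.73%) and 71 of 2339 in the knockout (3.04%), against 2.13% and 2.27% of all promoter anchors of the same libraries. Anchors with the motif were wider, at 15.7 against 13.2 kb and 26.2 against 15.9 kb, and wider anchors offer more places for a match. Of the copies, 90.9% and 91.9% lay within 2500 bp of a TSS. For comparison, 221 of 32851 RefSeq promoters of 300 bases (GRCm38.p6, 0.673%) hold an exact copy. A match is a description of the sequence and not of binding.

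With the motif at 1 anchor, 302 and 124 PETs were counted, and the knockout was at 41.1% of control (33.0 to 50.8). Without it, 4792 and 2145 PETs were counted, or 44.8%. The ratio of these values was 0.917 (0.734 to 1.14) and did not pass (Fisher's exact test, adjusted p = 0.899). An interval that wide includes both a moderate further loss and a small gain. Pairs with an exact copy at both anchors had 4 PETs in control and 2 in the knockout (exact test, adjusted p = 1), too few for a comparison. With up to 1 mismatch allowed, pairs with the motif at both anchors had 67 and 36 PETs. Their ratio to pairs without it was 1.19 (0.769 to 1.82, exact test, adjusted p = 0.393). With the motif at 1 anchor there were then 956 and 397 PETs, and the ratio was 0.921 (0.807 to 1.05, exact test, adjusted p = 0.393).

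The 6 contacts with an exact copy at both anchors, singled out after their values were seen, had 1 PET each in 1 library. Their motif copies are shown above. In control cells they were Jarid2, a Polycomb cofactor, with Dimt1, an rRNA methyltransferase, 62.9 Mb apart on chromosome 13, Asb13 with the same Dimt1 anchor at 104 Mb, Cep97 with Atp5j/Gabpa at 28.9 Mb on chromosome 16, and Ipo7/Zfp143 with the anchor of Tbx6, Ppp4c and Aldoa at 16.7 Mb on chromosome 7. In knockout cells they were 4922501C03Rik with Snx14/Syncrip at 1.21 Mb on chromosome 9 and Zfp444 with Lig1/6330408A02Rik at 7.75 Mb on chromosome 7. None of the pairs with the most PETs, of the pairs in both libraries named by their PETs or of the anchors with the most partners held an exact copy.

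Counts were small for Ronin, its partners and the genes that the study singled out for Ronin contacts. Thap11 had 4 long-range promoter PETs in control and 1 in the knockout, the control partners being the anchors of Cdt1/Aprt, Ing2, Mcm5 and Map2k7. Zfp143, a factor that binds a related motif, had 9 and 7 PETs, Yy1 0 and 1, and Hcfc1 0 and 0. Gpbp1l1 had 9 and 1, and Mmachc next to it, which acts in cobalamin metabolism, had 11 and 5. Ubtf, which drives rRNA transcription, had 11 and 4, Pou2f1 6 and 1, and Gsk3a 1 and 0. No pair of these genes had more than 2 PETs in a library, and the list of 11 genes for Ronin, its THAP relatives and partners had 20 and 16 PETs, or 80% (38.8 to 162).

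Genes of protein synthesis supplied many of the contacts. Of 76 cytosolic ribosomal protein genes, 73 had a long-range promoter contact in control and 43 in the knockout, beside 5642 and 3657 of all 22238 genes. They had 300 and 94 PETs or 31.3% of control (24.6 to 39.6), beside 44.5% for all long-range promoter contacts. Fewer PETs were counted in the knockout for 63 of the 74 genes with any and more for 4, beside 70.2% and 19.1% of all genes, none of it scaled for library totals. Rpl23a had 13 PETs in control and 4 in the knockout. Translation factors had 171 and 54 PETs, or 31.6% (22.8 to 43.1), among them Eif4a1 with 22 and 3, Eif2s2 with 16 and 2 and Eif1 with 16 and 7. The mitochondrial ribosome had 107 and 34 PETs, or 31.8%. Aminoacyl-tRNA synthetases, which charge tRNAs, had 71 and 35, or 49.3%, with Mars at 5 and 11.

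Nucleolar and snoRNP proteins had 68 and 27 PETs, or 39.7%, including Ncl (nucleolin) with 15 and 3. The chaperonin genes, whose products fold actin and tubulin, had 28 and 4 PETs, or 14.3% (3.64 to 40.8), and all 7 genes with a contact had fewer in the knockout, as had 70.2% of all genes. The proteasome had 78 and 24 PETs, or 30.8%, and oxidative phosphorylation 97 and 47, or 48.5% (33.4 to 69.3), with Atp5b at 16 and 6.

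Genes of RNA synthesis and processing were near the value for all contacts. Splicing factors had 265 and 112 PETs, or 42.3%, with Srsf1 at 17 and 4, and the RNA polymerase II machinery 157 and 60, or 38.2%, with Polr2a, the largest Pol II subunit, at 13 and 4. Zinc finger genes had 243 and 108 PETs, or 44.4%. The MCM helicase and Pcna, which act in DNA replication, had 35 and 14, or 40%. The replication-dependent histones had 171 and 79 PETs, or 46.2%, of which 78 and 47 joined histone anchors with each other, and without pairs that share a stretch 35.9% (23.3 to 53.9).

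Contacts between members of the same list were rare outside the histones. Ribosomal protein genes had 10 such PETs in control and 1 in the knockout, and proteasome genes 1 and 0. The lists overlap in anchors, since an anchor can hold genes of several lists, and an anchor's PETs then count for each.

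The labelled cell type was checked against its markers. Of 27 pluripotency genes, 18 had a long-range promoter contact in either library, beside 6618 of all 22238 genes. They had 45 and 14 PETs or 31.1% (15.8 to 57.7), among them Tet1 with 9 and 1, Klf2 with 6 and 2 and Esrrb with 4 and 3. The 8 fibroblast and 6 primitive endoderm genes had 0 in both libraries. Most annotated genes also had none, so lists this short say little about the cell type. Only 3 of 1087 olfactory receptor genes, which are silent outside sensory neurons, had a contact, with 7 and 0 PETs. In the plot by gene list, the intervals of cytosolic ribosomal proteins, translation factors and chaperonin genes lie below the line for all contacts, and those of the other lists cross it. The line lies at 41.1% without the Rnaset2b and Rnaset2a pair, which the interval of translation factors crosses. With shared stretches left out of both line and lists, the line lies at 39.5%. The intervals of translation factors (23.5 to 44.5) and chaperonin genes (3.64 to 40.8) then cross it. That of ribosomal proteins (24.3 to 39.4) ends just below it. These lists were not tested.

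**Figure D4:**
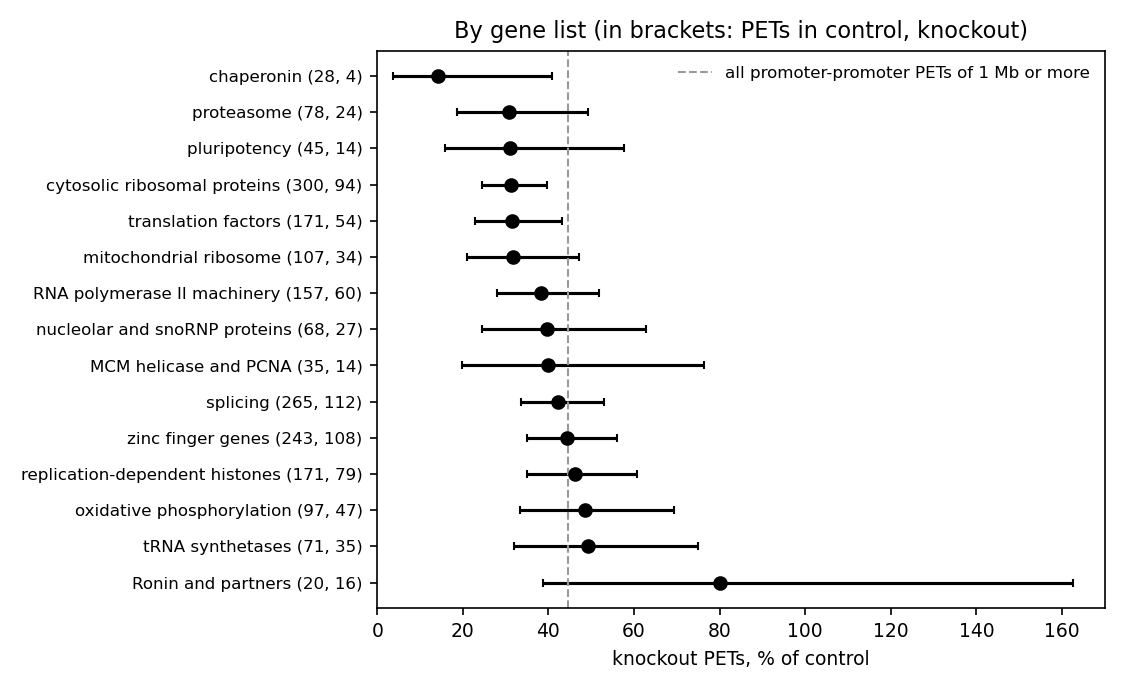
Knockout PETs as a percent of control (x axis) in long-range promoter-promoter contacts of each gene list (y axis), with PETs in control and knockout in brackets; bars are exact 95% intervals of counting error and the dashed line is the value over all such contacts (44.5%). Chaperonin genes stand at 14.3%, cytosolic ribosomal proteins at 31.3% and Ronin and partners at 80%.

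The contacts over the largest distances were single PETs of 1 library. In control cells these were Hspa14/Cdnf with Ncoa3 on chromosome 2 (162 Mb), Wdr45/Praf2 with Mid1 on chromosome X (159 Mb) and Ccdc115/Imp4 with Dtl/Ints7 on chromosome 1 (159 Mb). In knockout cells these were Lypla1 with Ahctf1 (177 Mb), Mcm3 with Kctd3 (170.006 Mb) and Mrpl15 with Atf6 (168 Mb), all on chromosome 1. None of these 6 pairs was found in the other library.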

How the data were processed

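The files hold RNA Pol II ChIA-PET contacts of mouse ESCs in 1 control and 1 Ronin knockout library. As stated by the authors, linkers were trimmed with cutadapt, mates mapped separately to mm9 with Bowtie 1.1.1, duplicate PETs collapsed, peaks called with MACS 1.4.2 and PETs with both ends in peaks counted per pair of peaks, after short-range PETs were removed and 2 experiments per condition were merged. The deposited values are raw PET counts per pair and per peak, a signed distance that was treated as a score and not used, and a hypergeometric p-value per pair with its Benjamini-Hochberg adjusted value, computed by the authors.

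Distances were taken between anchor midpoints, and promoters from TSSs of protein-coding genes of GENCODE vM1 (NCBIM37, mm9). Ratios have exact conditional binomial 95% intervals, classes and chromosomes were compared by two-sided Fisher's exact tests, and merged anchors by exact binomial tests against the knockout share of all intrachromosomal PETs (33.0%). Anchors were searched for identical stretches of at least 100 bp and, on both strands, for exact copies of the Ronin-binding motif. Named pairs were the 10 with the most PETs per library, up to 10 in both libraries, the anchors with the most partners, the 3 longest per library, up to 3 genes per list, the anchors called and the genes the study singled out. A few genes picked in this way are not reported here. Members, lists and rules were chosen with earlier results of these data known. Python 3.11.15, scipy 1.17.1, pandas 2.3.3, numpy 2.4.6, pysam 0.24.0 and matplotlib 3.10.9 were used. Alternatives covered the promoter window, distance, PET minimum, adjusted p, shared stretches, broad anchors, motif definition and null share.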

Additional observations from a re-analysis of the deposited data

How the results depend on the processing

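With 1 merged library per condition, no replicate could be left out. No paired analysis was possible because each condition has 1 merged library. Of 89 alternative values, 67 kept their direction and their side of the threshold, or moved within counting error. Alternatives that leave out the Rnaset2a-Rnaset2b pair or the anchors of Gm10800, Gm10801 and Gm10722/Gm11168, and all those by chromosome, distance and gene list, were chosen after the data were seen.

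The PET ratio of 44.5% became 39.9% at 2 Mb or more, 79.2% with at least 2 PETs, 48.2% with the deposited adjusted p under 0.05, 39.5% without shared stretches, 51.4% without anchors over 30 kb and 41.1% without the Rnaset2a-Rnaset2b pair. The pair ratio of 40.0% became 60.6% with at least 2 PETs and 43.5% with the adjusted p. Against promoter pairs under 1 Mb, the ratio turned to 1.34 with at least 2 PETs. The set with at least 2 PETs includes the Rnaset2a-Rnaset2b pair, which held 177 of its 506 knockout PETs and 0 in control. The turn by PETs rests on that pair. Against interchromosomal promoter pairs it was 0.977 without shared stretches, 1.105 with at least 2 PETs, 1.21 without the Gm10800, Gm10801 and Gm10722/Gm11168 anchors, 1.086 by pairs without shared stretches and 1.01 without the Rnaset2a-Rnaset2b pair. With at least 2 PETs, 35.4% and 50% of pairs were found again. With the motif at 1 anchor, the ratio was 1.02 by pairs. Member anchors called lower numbered 2 without shared stretches, and chromosomes that differed from the rest 0 by pairs, 0 without shared stretches and 1 without the Rnaset2a-Rnaset2b pair. The 1 to 2 Mb ratio was 50.8% by pairs, 45.9% without shared stretches and 53.7% without the Rnaset2a-Rnaset2b pair. The causes were not tested. Depth limits single contacts, since most had 1 PET.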
